A study of Mus musculus with 12 samples.

Results

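Of 10978 genes with a mean of at least 4 counts per 1000000 (CPM) in mouse splenic B cells, 277 were lower with etoposide than with LPS alone and were at or above the level of LPS alone when the ATM kinase inhibitor KU55933 preceded etoposide. These 277 members were chosen from the deposited table of 29486 genes by 3 values. Each column was scaled to a sum of 1000000 and the 4 columns of a condition were averaged. A member then had a mean over the 3 conditions of at least 4 CPM, a log2 ratio of etoposide to LPS of -0.4 or lower, and a value with KU55933 and etoposide no lower than with LPS. On a list of interferon-stimulated genes, 10 of the members were found, and 267 were not on it. All differences between conditions given below for the members come from the values that chose them, so they are descriptions, and no test was made on them.

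The B cells came from spleens of C57BL/6Babr mice and were cultured in 3 conditions, with 4 libraries each of polyadenylated RNA. The first condition, LPS, had 10 μg/ml of lipopolysaccharide, a bacterial product that activates B cells through Toll-like receptor signalling, for 48 h. The second, called etoposide here, had the same LPS and then 20 μM etoposide for 4 h, a topoisomerase II inhibitor that leaves DNA double-strand breaks. The third, called KU55933 with etoposide, had LPS for 47 h, 10 μM KU55933 for 1 h and then etoposide at the same dose for 4 h. Every condition held LPS, so unstimulated cells are not among the groups. No group had KU55933 without etoposide, so an effect of the inhibitor on undamaged cells cannot be told apart from an effect on damaged ones. Whether cells without etoposide were kept for 4 h more before collection is not stated in the labels, and the Illumina indexes of a condition were used in no other condition. In these bulk samples, fewer cells with a transcript and less of it per cell cannot be told apart.

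Column totals, in units of 1000000, ran from 20.7 to 23.9 (LPS), from 22.5 to 30.6 (etoposide) and from 20.4 to 25.1 (KU55933 with etoposide). The 4 columns of a condition kept a constant ratio across all genes, with log2 deviations of no more than 2.75e-14. After scaling they were therefore identical, and each condition had 1 value per gene. The table thus held no spread between replicates, and no SD, standard error or interval could be computed from it. All 10 B cell defining markers had a mean of at least 4 CPM. Of these, 5 were lower with etoposide by 0.4 or more on the log2 scale, 50% against 20.5% of all genes with such a mean. Cd74, the invariant chain of MHC class II, had 3096, 2908 and 2893 CPM, and Ighm, the heavy chain of IgM, 13596, 12579 and 13249 CPM, in the order LPS, etoposide, KU55933 with etoposide. Ms4a1, which encodes CD20, had 1236, 888 and 594 CPM. Among 14 markers of T and NK cells, Lck was the only one with a mean of at least 4 CPM, and Cd3e stayed between 0.0275 and 0.0799 CPM.

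ATM is a kinase that is activated at DNA double-strand breaks and phosphorylates p53 and many other proteins. Members included genes of 2 known programmes. ATF4 is a transcription factor whose translation increases when the initiation factor eIF2 is phosphorylated, in what is called the integrated stress response, and its targets serve amino acid synthesis, amino acid import, tRNA charging and protein folding. Interferon-stimulated genes are switched on through JAK kinases and STAT factors and serve defence against viruses, and B cells make many of them after contact with LPS. The list of ATF4 targets was written after values of these data had been seen, so its count among the members describes them and is no independent evidence.

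The 2 programmes are read from different DNA elements, and promoters of members that carry them are shown here. ATF4 and its partners of the C/EBP family bind a composite element called CARE, searched as TGATGNAA. Factors of the interferon pathway bind the interferon-stimulated response element, ISRE, searched as GAAANNGAAA. Both were searched on both strands of RefSeq promoter windows of 300 bases, 250 before and 50 after an annotated start, on GRCm38.p6. The windows below are written 5′ to 3′ on the strand of the gene, in lower case, with the match in capitals. The first 4 carry a CARE. Chac1, Pck2 and Asns are on the ATF4 list. Fgl2, which encodes a secreted fibrinogen-like protein with roles in immune regulation, is not.
Chac1, chr2:119350992-119351291, plus strand: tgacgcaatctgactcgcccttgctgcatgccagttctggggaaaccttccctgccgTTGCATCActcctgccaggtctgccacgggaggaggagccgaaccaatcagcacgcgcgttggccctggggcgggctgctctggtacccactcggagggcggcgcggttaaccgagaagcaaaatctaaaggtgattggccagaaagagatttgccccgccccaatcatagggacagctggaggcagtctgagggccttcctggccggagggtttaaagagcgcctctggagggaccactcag
Pck2, chr14:55540016-55540315, plus strand: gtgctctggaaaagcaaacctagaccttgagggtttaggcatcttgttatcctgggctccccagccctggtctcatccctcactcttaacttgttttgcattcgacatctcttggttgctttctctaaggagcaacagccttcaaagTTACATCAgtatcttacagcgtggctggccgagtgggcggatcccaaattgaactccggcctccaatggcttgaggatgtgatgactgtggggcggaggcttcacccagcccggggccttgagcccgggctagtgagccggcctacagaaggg
Asns, chr6:7693160-7693459, minus strand: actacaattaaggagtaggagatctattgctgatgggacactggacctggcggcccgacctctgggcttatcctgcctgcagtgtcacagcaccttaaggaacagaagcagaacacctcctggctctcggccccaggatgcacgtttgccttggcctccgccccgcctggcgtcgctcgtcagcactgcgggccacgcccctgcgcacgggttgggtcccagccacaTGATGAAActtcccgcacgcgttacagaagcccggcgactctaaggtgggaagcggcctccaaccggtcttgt
Fgl2, chr5:21372423-21372722, plus strand: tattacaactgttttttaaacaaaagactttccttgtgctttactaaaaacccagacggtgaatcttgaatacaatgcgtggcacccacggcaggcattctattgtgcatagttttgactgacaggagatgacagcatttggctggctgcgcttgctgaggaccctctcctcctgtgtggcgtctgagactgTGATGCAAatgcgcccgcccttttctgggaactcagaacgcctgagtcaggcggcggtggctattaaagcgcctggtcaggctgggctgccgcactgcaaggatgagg
The other two carry an ISRE: Gbp2b, an interferon-induced guanylate-binding protein, and H2-T23, which encodes the non-classical MHC class I protein Qa-1.
Gbp2b, chr3:142594597-142594896, plus strand: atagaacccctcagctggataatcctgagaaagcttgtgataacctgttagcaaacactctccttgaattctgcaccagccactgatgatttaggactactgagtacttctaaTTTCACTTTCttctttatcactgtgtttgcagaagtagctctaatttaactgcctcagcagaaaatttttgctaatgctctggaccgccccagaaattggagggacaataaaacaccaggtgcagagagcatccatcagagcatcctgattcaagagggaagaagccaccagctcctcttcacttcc
H2-T23, chr17:36032652-36032951, minus strand: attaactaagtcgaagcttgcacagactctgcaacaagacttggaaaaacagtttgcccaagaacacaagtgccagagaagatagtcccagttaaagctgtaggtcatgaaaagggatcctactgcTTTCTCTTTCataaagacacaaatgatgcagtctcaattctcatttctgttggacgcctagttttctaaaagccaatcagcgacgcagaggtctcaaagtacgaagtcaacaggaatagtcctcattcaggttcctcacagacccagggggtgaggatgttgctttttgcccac
The matches began 193 bases before the start in Chac1, 103 in Pck2, 23 in Asns, 58 in Fgl2, 137 in Gbp2b and 124 in H2-T23. In Chac1, Pck2, Gbp2b and H2-T23 the element lay on the opposite strand, so its reverse complement is what the capitals show.

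Each step of the rule was met by many genes, and both together by few. Etoposide was lower than LPS by the limit for 2247 genes, 20.5% of those with a mean of at least 4 CPM. KU55933 with etoposide was at or above LPS for 6456 genes, 58.8%. The members were 2.52% of all these genes and 12.3% of the lowered ones. The other 1970 lowered genes stayed below LPS with KU55933. A weaker criterion, KU55933 with etoposide at or above etoposide, held for 1525 of the 2247, or 67.9%. The mirror pattern, a log2 ratio of 0.4 or higher with etoposide and a value at or below LPS with KU55933, was held by 87 genes, 0.792%.

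**Figure D1:**
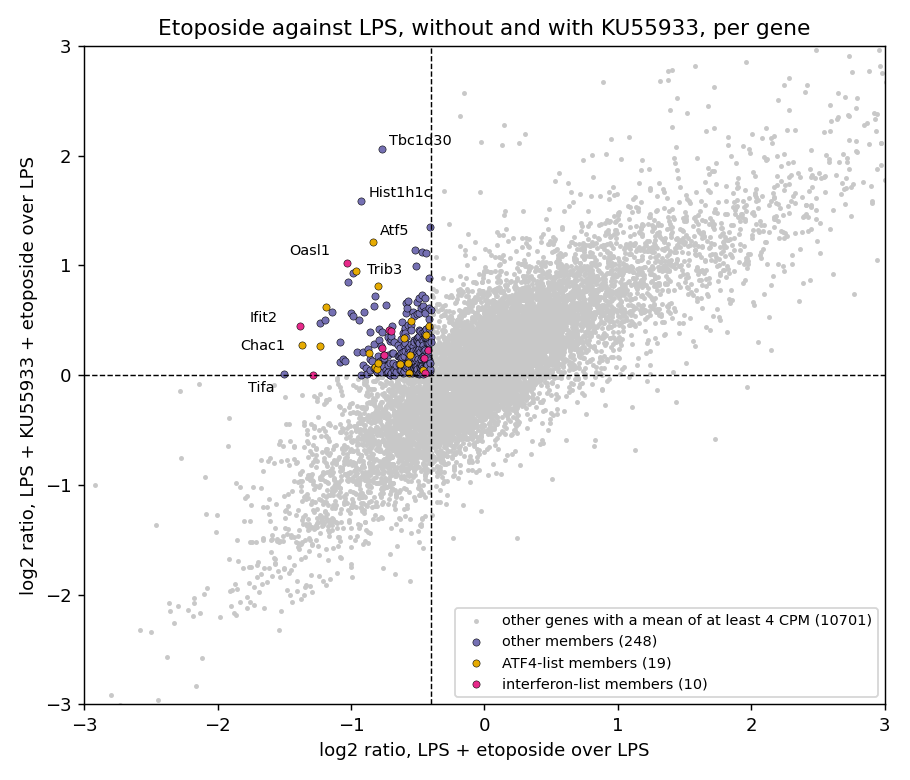
Each point is a gene with a mean of at least 4 CPM, placed by its log2 ratio of etoposide to LPS (horizontal) and of KU55933 with etoposide to LPS (vertical). Dashed lines mark the limits of -0.4 and 0 that chose the 277 coloured members in the upper left, while 168 genes, none of them a member, lie outside the axes.

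Over the members, etoposide stood at a median of 67.8% of LPS, with a range from 35.3% to 75.7%, and KU55933 with etoposide at a median of 115%, with a range from 100.1% to 418%. On the log2 scale the median ratio to LPS was -0.56 with etoposide and 0.20 with KU55933 and etoposide. The median of all genes with at least 4 CPM was 0.04 and 0.12. A log2 ratio of etoposide to LPS of -1 or lower was held by 16 members, 5.78%, by 24.6% of the other lowered genes and by 4.56% of all genes. With KU55933, 81 members were within 0.1 of LPS on the log2 scale. A further group of 62, 22.4%, was above LPS by 0.4 or more, a size reached by 28.9% of all genes, and 8 members were at least 2-fold above it. KU55933 with etoposide was at least 2-fold above etoposide for 78 members, 28.2%, and for 1.53% of all genes. The rule itself put members at least 0.4 above etoposide on the log2 scale, so this difference was partly set by it.

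How far the members returned depended on how the columns were scaled. Median-ratio size factors moved the median log2 ratio of all genes by -0.22 for etoposide and -0.23 for KU55933 with etoposide, each against LPS, and quantile normalization moved them by -0.10 and -0.12. Under all 3 scalings, etoposide was below LPS and KU55933 with etoposide was above etoposide for 277 of the 277 members. With column sums the rule itself set this. Size factors moved every ratio of etoposide to LPS further down. They moved the log2 ratio of KU55933 with etoposide to etoposide by -0.0145, where the lowest value among members was 0.44. No member could therefore fail under size factors, and that count has no bearing on stability. Quantile normalization moved genes by different amounts, so only there could a member have failed. A level at or above LPS with KU55933 held for 119 members under size factors and for 164 under quantile normalization. The whole rule held under all 3 scalings for 105 members. Where a gene below is said to be at or above LPS with KU55933, the statement is for column sums, and counts or names under the other scalings are given with the main groups. Of the members with the strongest lowering and the highest CPM, Tifa, Acss1, BC065397, Serp1, Actg1 and Gdi2 were among those below LPS with KU55933 under size factors, and of these Tifa, BC065397, Serp1 and Actg1 were below it under quantile normalization too.

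The members closest to the limits differed little from genes just outside them. For the first limit, the log2 ratio of etoposide to LPS was -0.4009 for Foxo4, -0.4019 for Slc26a6 and -0.4026 for Slc25a38 just inside, and -0.3993 for Mapk7, -0.3980 for Tmem63a and -0.3975 for Tapbp just outside. For the second, KU55933 with etoposide and LPS had 7.07 and 7.06 CPM for Tmem120b, 22.97 and 22.9 for Rinl and 126.1 and 125.9 for Plac8. The corresponding values outside were 9.403 and 9.41 CPM for Acot11, 56.9 and 56.98 for Pdcd6 and 7.99 and 8.002 for Alpk1. Around the limit on the mean, Fut1, BC065397 and 2310039H08Rik had means of 4.01, 4.08 and 4.09 CPM, and Cplx2, BC051226 and 2010016I18Rik, just below it, 3.99, 3.99 and 3.88 CPM.

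Of the ATF4 list, 49 genes had a mean of at least 4 CPM. Etoposide was lower by the limit for 34 of them, 69.4% against 20.5% of all genes, and higher by 0.4 or more for 5. KU55933 with etoposide was above etoposide for 33 of the 34, where 67.9% of all lowered genes were at or above it. Members were 19 genes, 55.9% of those lowered, where 12.3% of all lowered genes were members. The list as a whole had median log2 ratios to LPS of -0.56 with etoposide and 0.18 with KU55933 and etoposide.

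Regulators of this programme were among the members. Atf4 had 354 CPM with LPS, 241 with etoposide and 498 when KU55933 preceded it. Atf5, a related factor and known ATF4 target, had 34.7, 19.4 and 80.1 CPM in the same order, so that the value with KU55933 was the highest of the 3. Trib3 encodes a pseudokinase that restrains ATF4, and had 30.7, 15.7 and 59.4 CPM. For all 3 genes the log2 ratio of KU55933 with etoposide to etoposide was above 1, at 1.05, 2.05 and 1.92. Cebpg, whose protein pairs with ATF4, differed less, with 109, 79.4 and 113 CPM. Atf5 overlaps the expressed gene Il4i1 on the opposite strand, and the strand setting used in counting is not given in the sources used here.

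Enzymes of amino acid and related metabolism came next. Chac1 encodes an enzyme that breaks down glutathione, and its CPM was 16.9 with LPS, 6.56 with etoposide and 20.5 with KU55933. Pck2, the mitochondrial form of phosphoenolpyruvate carboxykinase, had 271, 116 and 326 CPM. Gpt2, a mitochondrial alanine aminotransferase, had 30.2, 13.3 and 46.3 CPM. These were the 3 members of the list with log2 ratios of etoposide to LPS below -1, at -1.37, -1.23 and -1.19. Asns, which makes asparagine and whose CARE is shown above, had 134, 73.4 and 154 CPM. Shmt2 and Aldh1l2, both of mitochondrial one-carbon metabolism, had 442, 297 and 478 CPM and 27.6, 15.8 and 28.8 CPM. Got1, an aspartate aminotransferase, and Cth, which makes cysteine from cystathionine, had the smallest differences among these enzymes, with log2 ratios of -0.44 and -0.41. In both, KU55933 with etoposide was above LPS, at 151 against 117 CPM and 59.8 against 43.7 CPM.

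Transporters, tRNA charging and the remaining members of the list followed the same order. Slc1a4, a carrier of small neutral amino acids, had 38.9 CPM with LPS, 22.4 with etoposide and 68.4 with KU55933. Slc7a5, the light chain of a carrier of large neutral amino acids, had 267, 172 and 287 CPM. With KU55933, Slc1a4 was thus well above its LPS level and Slc7a5 close to it. The synthetases Cars, for cysteine, and Aars, for alanine, had 137, 77.6 and 144 CPM and 344, 234 and 391 CPM. Log2 ratios of etoposide to LPS were -0.80 for Fam129a, -0.61 for Gtpbp2 and -0.57 for Herpud1, which acts in degradation of proteins of the endoplasmic reticulum. Of the 19, 9 met the rule under all 3 scalings: Atf5, Chac1, Cth, Got1, Gpt2, Gtpbp2, Pck2, Slc1a4 and Trib3. Under size factors 9 of the 19 were below LPS with KU55933, and under quantile normalization 1, Aldh1l2, was. A further 3, Atf4, Aars and Shmt2, missed the limit for etoposide under quantile normalization, with log2 ratios of etoposide to LPS of -0.36, -0.38 and -0.39. Compared per kilobase of exon with LPS, Atf4 had 150.1 CPM per kb, Shmt2 142, Asns 49.00, Pck2 34.7, Atf5 17.4 and Chac1 10.3.

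**Figure D2:**
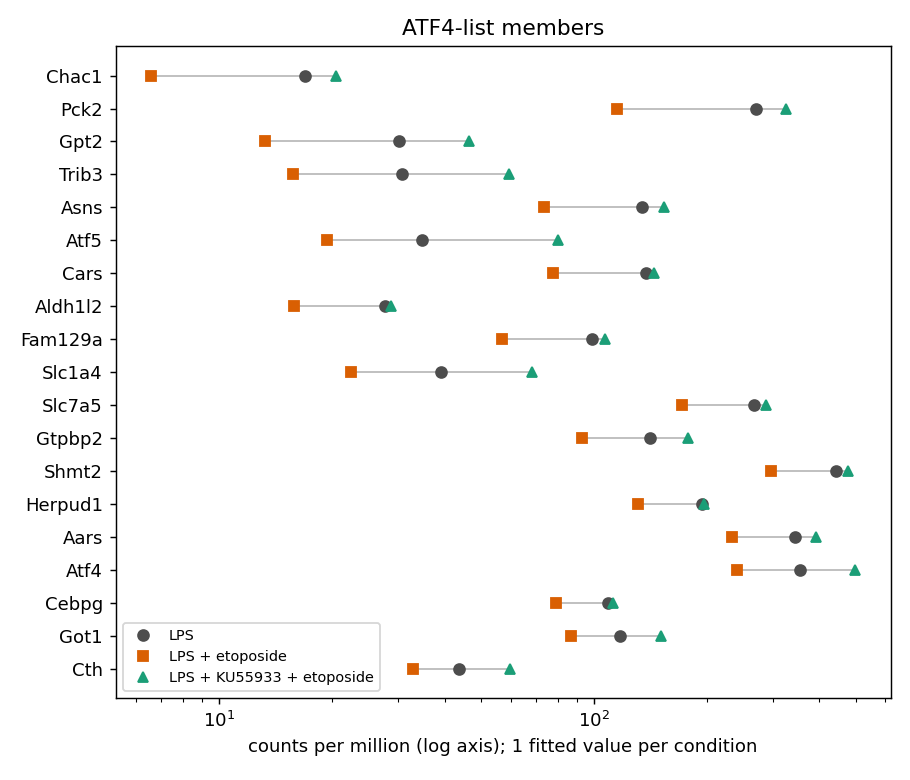
CPM on a log axis for the 19 members on the ATF4 list, with 1 point per condition (circle LPS, square etoposide, triangle KU55933 with etoposide), ordered from the lowest log2 ratio of etoposide to LPS at the top. The square is leftmost in every line, and the triangle lies furthest beyond the circle for Atf5, Trib3 and Slc1a4.

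Genes of the list that were not members were chosen for mention after their values were seen. Of the 15 lowered genes of the list that stayed below LPS with KU55933, 14 were still above etoposide, and 2, Sars and Mars, were within 0.1 of LPS on the log2 scale. The serine synthesis genes Psph, Phgdh and Psat1 had log2 ratios to LPS of -0.96, -0.69 and -0.61 with etoposide and -0.28, -0.37 and -0.15 with KU55933. Slc7a11, which imports cystine, was the 1 of the 15 that was lower still with KU55933, with 15.2, 11.2 and 8.07 CPM. Among 20 cytosolic aminoacyl-tRNA synthetases, a list also written after values were seen, 16 were lower with etoposide, 80% against 20.5% of all genes. Of these 16, 14 were higher with KU55933 than with etoposide. Cars and Aars were the 2 of the 16 that reached LPS, 12.5% against 12.3% of all lowered genes. Other targets on the list were not lowered. Ddit3, which encodes CHOP, had 28.5, 30.4 and 70.3 CPM, Atf3 had 61.7, 83.6 and 150.3, and Ppp1r15a, whose protein GADD34 helps to dephosphorylate eIF2, had 50.4, 150.5 and 354. Sesn2 and Ddit4, which are also p53 targets, had 48.3, 366 and 254 CPM and 105, 390.1 and 344 CPM. These last 2 were the reverse of the members, being higher with etoposide and less so with KU55933.

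The interferon list held 170 genes with a mean of at least 4 CPM, and etoposide was lower by the limit for 82 of them, 48.2%, against 20.5% of all genes. KU55933 with etoposide was at or above etoposide for 70 of the 82, or 85.4%, against 67.9% of all lowered genes. Of the 82, 10 were members, or 12.2%, against 12.3% of all lowered genes. The medians of the list were -0.34 for the log2 ratio of etoposide to LPS, -0.05 for KU55933 with etoposide to LPS and 0.33 for KU55933 with etoposide to etoposide, where all genes had 0.04, 0.12 and 0.03.

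Among these 10 genes were sensors and binders of foreign RNA. Ifit2, whose protein binds RNA and hinders translation of viral messages, had 47.2 CPM with LPS, 18.1 with etoposide and 64.4 when KU55933 preceded it. Ifih1, which encodes the double-stranded RNA sensor MDA5, had 104, 61.3 and 124 CPM. Oasl1 and Oasl2, neighbours on chromosome 5 that encode relatives of the oligoadenylate synthetases, differed from each other with KU55933. Oasl1 had 149, 72.7 and 302 CPM, and Oasl2 47.01, 19.3 and 47.2 CPM. Oasl1 therefore exceeded its LPS level 2-fold, and Oasl2 was close to it. The remaining gene of the same stretch (chr5:114896936-114949783, GRCm38), 2210016L21Rik, was a member too, though it is not on the list, with 32.8, 22.5 and 33.2 CPM.

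The remaining interferon members were effectors and modifiers. Gbp2b, with the ISRE shown above, had 139, 85.2 and 183 CPM, and Rtp4, a protein chaperone for membrane receptors, had 37.6, 22.9 and 49.98 CPM. Herc6, a ligase for the ubiquitin-like protein ISG15 in mice, had 115, 68.3 and 130.5 CPM. In these 3 the value with KU55933 was above that with LPS. Parp14 and Parp12, of the poly(ADP-ribose) polymerase family, had 490.2, 358 and 545 CPM and 5.27, 3.93 and 6.17 CPM. Trim12a had 72.2, 53.1 and 73.3 CPM, and it overlaps an expressed gene on the opposite strand. Ifit2, Oasl1, Ifih1, Rtp4 and Gbp2b met the rule under all 3 scalings. Under size factors Oasl2, Herc6, Parp14, Trim12a and Parp12 were below LPS with KU55933, and under quantile normalization Oasl2, Trim12a and Parp12 were.

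**Figure D3:**
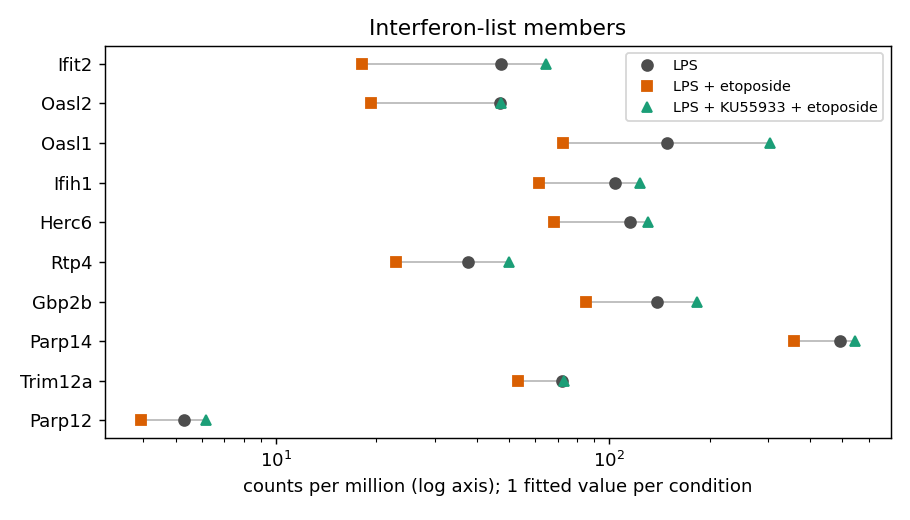
CPM on a log axis for the 10 members on the interferon list, with 1 point per condition (circle LPS, square etoposide, triangle KU55933 with etoposide). The square is leftmost in every line, and the triangle of Oasl1 lies furthest to the right of its circle, at 302 against 149 CPM.

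Close relatives of the interferon members returned to different extents. Ifit3 and Ifit3b were lowered more than Ifit2, with log2 ratios of etoposide to LPS of -2.14 and -2.28, and with KU55933 they stood -0.08 and -0.15 from LPS, just short of the limit. Gbp7 had 106, 49.2 and 103 CPM, and Stat2, a factor that carries the interferon signal, had 250.4, 122 and 247 CPM, both within 0.1 of LPS on the log2 scale. In all, 9 lowered genes of the list lay in that narrow band below LPS. At the other end, 42 were still lower than LPS by 0.4 or more with KU55933. Irf8, a factor of B cell and myeloid development, had 538, 149 and 166 CPM, and Jak1, a kinase of interferon receptors, had 469, 217 and 207 CPM. The list was also not lowered throughout, and 21 of its genes were higher with etoposide by 0.4 or more, Parp10 among them with 73.4, 284 and 197 CPM. Ifit1, Rsad2 and Cxcl10 were not lowered by the limit, and were still far above LPS with KU55933. They had 58.7, 57.6 and 257 CPM, 33.7, 27.3 and 108 CPM, and 4.49, 3.59 and 69.0 CPM. A high level with KU55933 was thus also found without a lowering by the limit. Of all 170 genes, 79 were at or above LPS with KU55933, where 58.8% of all genes were.

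Promoter sequences were not used by the rule, and gave a separate view of the members. A window was found for 207 of the 277 members, 254 windows in all. A CARE was present in 8 of 16 windows of the ATF4-list members, or 50%, and in 237 of 10428 windows of all genes with a mean of at least 4 CPM, or 2.27%. It was present in 6 of 29 windows, 20.7%, of genes on that list that were not members, and in 3.97% of the 32851 windows in the whole RefSeq set. Some genes of the ATF4 list are known as targets through this very element, so its presence in them is no separate evidence. Members on neither list had it in 11 of 229 windows, 4.8%, and the 1970 lowered genes that stayed below LPS in 51 of 2004, 2.54%. The GC content of the windows was alike, with a median of 60.5% for ATF4-list members and 61% for all genes with a mean of at least 4 CPM.

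The share of windows with an ISRE was close in members and in the lowered genes that stayed below LPS. It was present in 13 of 254 member windows, 5.12%, in 86 of 2004 windows of the lowered genes below LPS, 4.29%, and in 3.3% of the windows of all genes with a mean of at least 4 CPM. Of interferon members, 3 of 9 windows had it, in Gbp2b, Ifih1 and Trim12a. Interferon-list genes that were lowered and stayed below LPS had it in 29 of 73 windows, 39.7%. Other elements are given as shares of member windows and of the windows of all genes with a mean of at least 4 CPM, called all here. An E-box (CACGTG) was in 10.2% of member windows and 10.4% of all, a GAS element (TTCNNNGAA) in 6.69% and 6.84%, an NF-κB site (GGGANNNTCC) in 4.72% and 5.29%, a CRE (TGACGTCA) in 1.97% and 3.31%, and a TATA box (TATAAA) in 7.87% and 6.64%. Matches of different motifs shared bases in 1 member window, a GAS element with an NF-κB site. A match of these letters is not evidence that a factor is bound, and all these shares are descriptions.

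**Figure D4:**
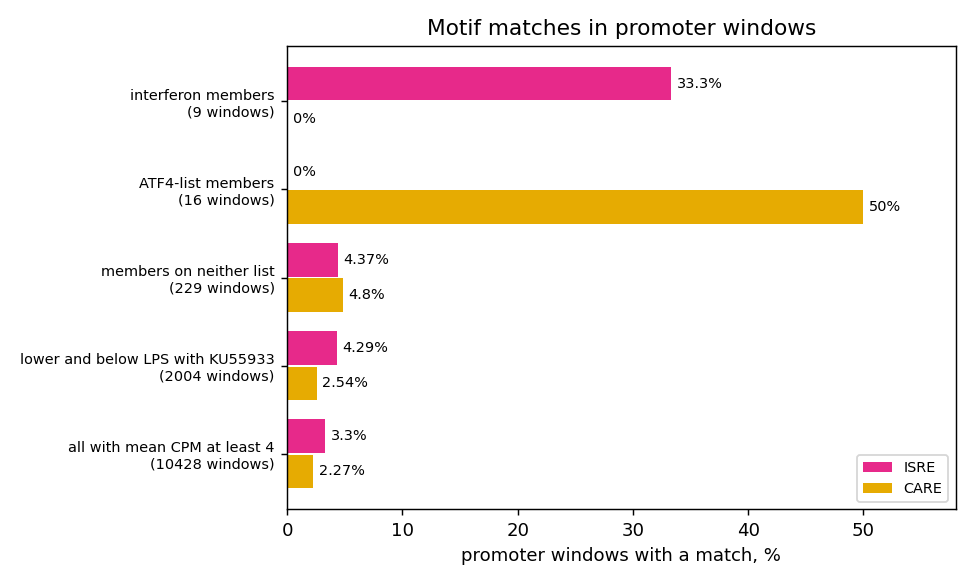
Bars give the percent of RefSeq promoter windows of 300 bases that hold an ISRE (pink) or a CARE (yellow), from 0, for members by list, for the 1970 lowered genes below LPS with KU55933 and for all genes with a mean of at least 4 CPM. CARE matches stand at 50% of the 16 windows of ATF4-list members, 4.8% for members on neither list, 2.54% for the lowered genes below LPS and 2.27% for all genes, and in 0 of 9 windows of interferon-list members.

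Among the 267 members off the interferon list, the lowest ratio of etoposide to LPS was that of Tifa, an adaptor that links pattern recognition to NF-κB. Its CPM was 18.2 with LPS, 6.42 with etoposide and 18.3 with KU55933, so that the value with KU55933 was close to that with LPS. The 2 linker histones with a mean of at least 4 CPM, of 7 in the table, were both members. This list was written after values were seen. Over all genes 20.5% were lower, and 12.3% of the lowered genes were members. H1f0, which is most abundant in resting and differentiated cells, had 27.1, 11.5 and 37.6 CPM, and Hist1h1c had 7.51, 3.96 and 22.6 CPM. Both were above LPS with KU55933 under every scaling. Another histone gene among the members, Hist1h4i, had 6.35, 3.38 and 7.36 CPM. It was below LPS with KU55933 under size factors and quantile normalization, with log2 ratios of -0.02 and -0.13. Transcripts of most histone genes lack a poly(A) tail, and these libraries were made from polyadenylated RNA.

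The other members with the strongest lowering had varied functions. Fgl2 had 37.2, 16.3 and 52.7 CPM. Arl5c, a small GTPase of the ARF-like family, had 85.5, 38.7 and 128 CPM. Slc2a6, a sugar transporter of the GLUT family, had 54.4, 25.6 and 67.1 CPM, and Acss1, a mitochondrial acetyl-CoA synthetase, had 59.5, 28.6 and 65.96 CPM. In Fgl2 and Arl5c the level with KU55933 was well above LPS, and in Acss1 it was close to it. BC065397 was near the limit of expression, with 4.75, 2.300 and 5.203 CPM. Angptl6, a secreted angiopoietin-like protein, had 3.73, 1.84 and 6.73 CPM.

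Some members exceeded LPS with KU55933 by far more than they had been below it with etoposide. Tbc1d30, which encodes a protein with a Rab GTPase-activating domain, had 2.21, 1.297 and 9.23 CPM, a log2 ratio of 2.06 to LPS. Kbtbd11 and Mib2, the latter a ubiquitin ligase of Notch signalling, had 6.99, 5.26 and 17.8 CPM and 36.4, 25.4 and 80.5 CPM. With Hist1h1c and Atf5 they were the 5 members off the interferon list with the highest ratio to LPS. In all 5, KU55933 with etoposide was more than 2-fold above LPS under column sums.

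The members with the highest CPM served general cell functions. Serp1, which protects proteins during entry into the endoplasmic reticulum, had 1782, 1136 and 2015 CPM and overlaps the expressed gene Eif2a on the opposite strand. Actg1, cytoplasmic γ-actin, had 1095, 718 and 1175 CPM, and its processed pseudogene Actg-ps1 was a member as well, with 11.5, 8.33 and 12.99 CPM, so reads may have been shared between them. Gdi2, an inhibitor of Rab GTPases, had 562, 401 and 570.5 CPM. Tmem123 had 483, 282 and 580.5 CPM, and Gm26809 715, 536 and 1019.9 CPM. Per kilobase of exon with LPS, Actg1 was at 412 and Serp1 at 386 CPM per kb.

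Of 25 B cell identity factors 17 were lower with etoposide, 68% against 20.5% of all genes, and none was a member. Of those 17, 8 were higher with KU55933 than with etoposide, where 67.9% of all lowered genes were at or above etoposide. Pax5, the factor that maintains B cell identity, had 218, 48.4 and 51.9 CPM, and Cd22, a surface inhibitor of the B cell receptor, 950.3, 185 and 225 CPM, so both stayed far below LPS with KU55933.

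Some members with roles in lymphocyte signalling were grouped after their values were seen. Cd83 and Cd69, both markers of activation, had 488, 357 and 569 CPM and 61.3, 43.2 and 62.3 CPM. S1pr1, the receptor that guides lymphocytes out of lymphoid organs, had 26.99, 14.7 and 27.1 CPM, and Cd200, a surface inhibitor of myeloid cells, 17.7, 13.1 and 38.2 CPM. Of these, Cd200 was above LPS by more than 1 on the log2 scale, and Cd69 and S1pr1 equalled LPS within 0.1. Cytip, which regulates cell adhesion, had 412, 303 and 608 CPM. The factors Nfatc3 and Runx3 and the kinase Fyn had log2 ratios to LPS of -0.66, -0.59 and -0.60 with etoposide and 0.09, 0.38 and 0.07 with KU55933. The 9 genes of this group, Flt3 included, had a median log2 ratio to LPS of -0.59 with etoposide and 0.22 with KU55933, and under size factors 5 of them were below LPS with KU55933. They were picked from the members, so these medians follow from the rule. Of 27 genes of B cell receptor signalling, a list fixed beforehand, 23 were lower with etoposide, 85.2% against 20.5% of all genes. The median log2 ratio of that list to LPS was -1.06 with etoposide and -0.95 with KU55933 and etoposide.

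Flt3 and Cox6a2 are also known as markers of dendritic cells. Flt3, a growth factor receptor, had 110.4, 71.3 and 131 CPM, and Cox6a2, a subunit of cytochrome c oxidase, 5.41, 3.17 and 7.12 CPM. Of 15 markers of macrophages and dendritic cells, 6 had a mean of at least 4 CPM, and of 9 markers of plasmacytoid dendritic cells, 6 had. The summed CPM of each whole list was 582, 526 and 574 for the first list and 375, 231 and 266 for the second, in the order LPS, etoposide, KU55933 with etoposide. Of the first list, Clec9a and Itgax stayed between 0.024 and 0.223 CPM, while Zbtb46 had 4.06, 7.83 and 18.1 CPM and Cd68 4.12, 9.12 and 7.79 CPM. Of the second list, Siglech stayed between 0.0248 and 0.0428 CPM, and Tcf4, a factor that B cells also express, had 254, 106 and 97.2 CPM. The part of such cells in the values of Flt3 and Cox6a2 was not tested.

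In Toll-like receptor and NF-κB signalling, 13 of 31 genes were lower with etoposide, 41.9% against 20.5% of all genes, and 2 were members, 15.4% of those lowered against 12.3% of all lowered genes. Unc93b1, which brings endosomal Toll-like receptors to their place, had 451, 325 and 484 CPM, and the receptor kinase Irak1 179, 134 and 183 CPM. Among 14 cytokine and chemokine genes 5 were lower, 35.7%, and 6 were higher by 0.4 or more. Il6 was the only member, 20% of those lowered. It had 11.9, 8.92 and 22.04 CPM, so that KU55933 with etoposide was the highest of the 3. Of 21 genes of MHC class I presentation, 4 were lower, 19.0% against 20.5% of all genes, and 2 were members, 50% of those lowered. H2-T23, with the ISRE shown above, had 293, 199.9 and 358 CPM, and H2-M3, which presents formylated peptides, 59.5, 38.1 and 67.1 CPM.

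Several lists had no member or few. Over all genes with a mean of at least 4 CPM, 20.5% were lower, and 12.3% of the lowered genes were members. All 28 p53 targets with a mean of at least 4 CPM failed the first step, and 25 were higher with etoposide by 0.4 or more. Of 24 mitosis genes 20 were lower, 83.3%, and none was a member. With KU55933, 3 of the 20 were higher than with etoposide, where 67.9% of all lowered genes were at or above it. Of 23 replication genes 8 were lower, 34.8%, and none was a member. Of 21 immediate early genes 1 was lower, 4.76%, and it was no member. Of 277 zinc finger genes named Zfp 16 were lower, 5.78%, and 2 were members, 12.5% of those lowered. These were Zfp524 and Zfp775, with log2 ratios of etoposide to LPS of -0.56 and -0.44. Of 21 receptors of migration and homing 8 were lower, 38.1%, with S1pr1 the only member, 12.5% of those lowered.

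Further groups among the members were listed after their values were seen, and are given as descriptions. Of 41 genes of the cilium and centriole, 19 were lower with etoposide, 46.3% against 20.5% of all genes. KU55933 with etoposide was above etoposide for 19 of these 19, against 67.9% of all lowered genes, and 11 were members, 57.9% of those lowered against 12.3%. They include intraflagellar transport genes, which carry cargo along the cilium: Ift172 had 30.1, 20.9 and 43.7 CPM, Wdr19 5.41, 3.600 and 8.52, and Ift122 12.4, 7.84 and 12.6. Some of the 11 were near the limit of 4 CPM, such as Tmem231 with a mean of 4.39 CPM, while Cep135 had 47.6 CPM. Under size factors 6 of the 11 were below LPS with KU55933. The motor gene Kif3c and the centriolar genes Cep135, Spice1 and Sclt1 had log2 ratios to LPS of -0.54, -0.52, -0.54 and -0.53 with etoposide, and 0.57, 0.12, 0.06 and 0.06 with KU55933. The members Tmem231, Wdr34, Tbc1d32 and Arl6 made up the rest.

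Enzymes of amino sugars and of the lysosome formed smaller groups. Of 13 amino sugar genes 5 were lower, 38.5% against 20.5% of all genes, and 4 were members, 80% of those lowered against 12.3%. Higher by 0.4 or more were 2 of the 13, and the summed CPM of the whole list was 505, 685 and 741. Nagk, a kinase of N-acetylglucosamine, had 5.71, 3.83 and 9.103 CPM, Renbp, which interconverts N-acetylglucosamine and N-acetylmannosamine, 11.4, 8.23 and 14.9, and Gnpda1, a glucosamine phosphate deaminase, 43.02, 31.6 and 69.99. These 3 were above LPS with KU55933 by 0.67, 0.39 and 0.70 on the log2 scale, and under every scaling. Uap1l1 was close to LPS, at 16.1 against 15.6 CPM. Of 39 lysosomal genes 5 were lower, 12.8% against 20.5% of all genes, and 3 were members, 60% of those lowered against 12.3%. Higher by 0.4 or more were 12 of the 39, and the median log2 ratio of etoposide to LPS over the list was 0.03. Neu1, the lysosomal sialidase, had 50.98, 25.4 and 75.5 CPM, and Ctsa, the cathepsin that forms a complex with it, 87.7, 52.6 and 90.7 CPM. The amidase Naaa had 22.4, 14.1 and 23.5 CPM.

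Atm, which encodes the kinase that KU55933 inhibits, was itself a member. Its CPM was 327 with LPS, 235 with etoposide and 348 when KU55933 preceded it. It was the 1 lowered gene of 5 DNA damage kinases, a list written after values were seen, 20% against 20.5% of all genes. The other kinases, Atr, Prkdc, Chek1 and Chek2, were not lowered by the limit, and 1 of them was higher by 0.4 or more. Under size factors Atm was below LPS with KU55933, and under quantile normalization its log2 ratio of etoposide to LPS was -0.31, short of the limit. Cdkn1b, which encodes the cell cycle inhibitor p27, had 166, 107 and 188 CPM, and Cdk5 19.7, 11.1 and 23.9 CPM.

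Members had a shorter median genomic span, which the rule did not use, than the other lowered genes. Of the 276 members with a position in GENCODE M21 (GRCm38), the median span from start to end was 16366 bp. The lowered genes that stayed below LPS had a median of 34463 bp (1964 genes) and all genes with a mean of at least 4 CPM one of 21076 bp (10945 genes). Spans over 50 kb were held by 51 members, 18.4%, by 783 of the lowered genes below LPS, 39.7%, and by 2619 of all, 23.9%. Neighbouring and overlapping genes are not independent, and no test was made. Protein-coding genes were 252 of the 277 members, 91.0%, close to the 92.8% of the lowered genes below LPS and the 90.2% of all. The mean level of members was lower than that of the lowered genes below LPS, with medians of 27.5 and 50.5 CPM.

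**Figure D5:**
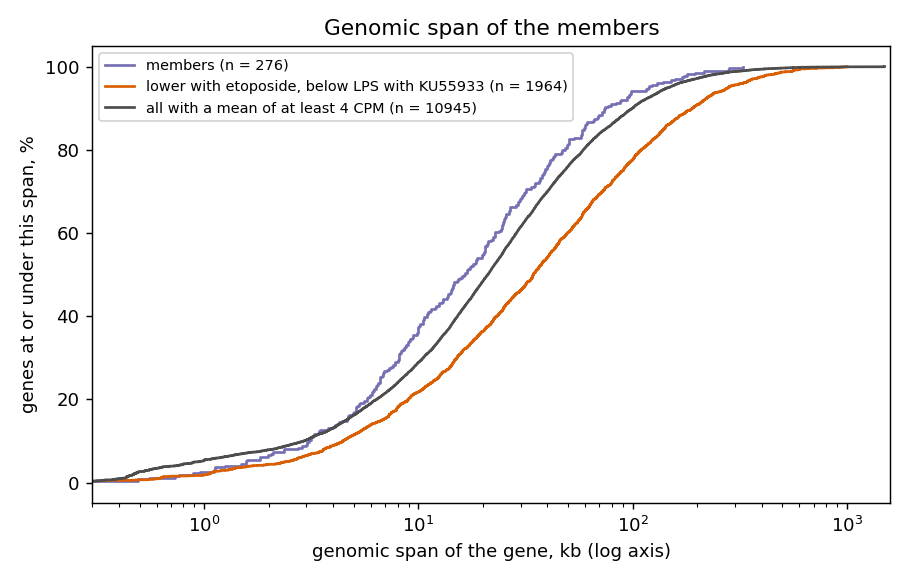
Cumulative percent of genes at or under a genomic span in kb (log axis) for the members (276), the lowered genes below LPS with KU55933 (1964) and all genes with a mean of at least 4 CPM (10945). The member curve lies above the other two over most of the axis, with medians of 16366, 34463 and 21076 bp.

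Some members lay side by side. Within 100 kb of another member were 51 genes, in 22 groups. The same count was not made for other genes, so whether members lie closer together than other genes was not tested. The largest groups were on chromosome 1, with 6 members at chr1:84963669-85285491 and 3 at chr1:85526690-85611896 (GRCm38). These 9 genes, among them A530032D15Rik with 79.7, 48.7 and 85.96 CPM and A530040E14Rik with 174, 113 and 194 CPM, lie beside the interferon-induced genes Sp140 and Sp110. The values of the 9 ran from -0.71 to -0.41 with etoposide and from 0.02 to 0.21 with KU55933, as log2 ratios to LPS, and all 9 were below LPS with KU55933 under size factors. Several overlap each other, and their likeness in sequence was not tested here, so their reads may have been split or shared, and their values are uncertain. Of all members, 56 overlapped another expressed gene, a count that was also made for members only. When these 56 were left out 221 members remained, with medians of -0.57 and 0.21 for the log2 ratios of etoposide and of KU55933 with etoposide to LPS.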

How the data were processed

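Total mRNA abundance was analysed in 12 mRNAseq libraries, 4 for each of 3 conditions. According to the methods and the processing notes of the submitters, libraries were made with a stranded TruSeq kit, reads were trimmed with Trim Galore and cutadapt 1.2.1, mapped to GRCm38 with TopHat2 2.0.12, counted on Ensembl release 78 genes with HTSeq and fitted with DESeq2 1.6.3. The deposited table holds a normalised signal per gene and library, which the authors' fit had replaced by the mean of the condition times a factor of the library. Moderation of that fit, if any, is carried by these values. The 3 deposited comparisons of the authors (mean signal, log2 fold change with its standard error, test score, p-value and adjusted p-value) were not used.

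Columns were divided by their sum and multiplied by 1000000, giving CPM, and averaged per condition. The limits were a mean of 4 CPM, a log2 ratio of etoposide to LPS of -0.4 and a log2 ratio of KU55933 with etoposide to LPS of 0, with no pseudocount. The planned display of replicate spread could not be made on fitted means, and column totals stand for depth. Members and lists were chosen with earlier results of these data known, and the lists of ATF4 targets, synthetases, cilium, lysosome, amino sugar, linker histone and DNA damage kinase genes, the smaller groups and the CARE motif after the members' values were seen. Named are all interferon members, the 12 other members with the lowest ratio of etoposide to LPS, the 10 with the highest mean, the 5 with the highest ratio of KU55933 with etoposide to LPS, members on a list and 3 genes on each side of each limit. Further names were chosen after their values were seen. Of the genes this rule names, 2 are not reported here. Gene positions came from GENCODE M21 and promoter windows from RefSeq (GRCm38.p6). Alternatives changed the scaling, the limits and the genes admitted. Python 3.11.15, numpy 2.4.6, pandas 2.3.3 and matplotlib 3.10.9 were used.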

Additional observations from a re-analysis of the deposited data

How the results depend on the processing

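The number of members was 277. It was 164 with a mean of at least 20 CPM, 111 and 16 with log2 ratios of etoposide to LPS of at most -0.6 and -1, and 140 with a log2 ratio of KU55933 with etoposide to LPS of at least 0.2. The interferon members, 10 in number, became 3 at -1, 6 at 0.2 and 19 when a ratio of -0.1 was admitted, and the 19 ATF4-list members became 12 at -0.6, 3 at -1 and 11 at 0.2. These counts follow from the limits themselves. The median log2 ratio of etoposide to LPS, -0.56, was -0.54 with size factors, -0.58 with quantile normalization, -0.54 with a pseudocount of 1 CPM, -0.56 and -0.55 with means of at least 1 and 20 CPM, -0.77 and -1.16 at limits of -0.6 and -1, -0.55 and -0.57 at 0.2 and -0.1, -0.56 in protein-coding genes, -0.56 with size factors set on genes of at least 4 CPM and -0.57 without overlapping genes. The median log2 ratio of KU55933 with etoposide to LPS, 0.20, was in the same order 0.16, 0.16, 0.18, 0.21, 0.18, 0.18, 0.38, 0.37, 0.11, 0.20, 0.18 and 0.21. The last 2 settings were added after the data were seen. Each median is over the members chosen under its own setting. These medians therefore follow from the limits and have no bearing on stability. Counts hid changes in which genes were members: of 297 members under size factors 118 were among the 277, of 289 under quantile normalization 151, and of 230 under size factors set on genes of at least 4 CPM 191.

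Leaving out each replicate in turn gave 277 members in every case, from 277 to 277. Log2 ratios taken within each replicate number and then averaged also gave 277. Medians were also the same, at -0.56 and 0.20. Since the 4 columns of a condition are copies of 1 fitted mean, this has no bearing on stability, and whether the numbers pair the samples could not be checked. The depth of the libraries sets a precision for each value that the fitted means do not show.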
